A study of Mus musculus with 6 samples.

Results

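The Hox genes of the 4 mammalian clusters were followed through days 3, 4 and 5 of mouse ES cell differentiation. Members were all genes whose probe sets carry a single platform symbol made of Hox, a cluster letter from a to d, and a number. Of the 18193 genes named on the array, 33 met this rule, 9 in the Hoxa cluster, 9 in Hoxb, 7 in Hoxc and 8 in Hoxd. Where a gene had several probe sets, the one with the highest average reading was used, and 11 of the 33 genes had more than 1. A further 3 probe sets carry 2 Hox symbols each and were left out, with readings between 2.71 and 24.4.

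The samples came from A2.miR200c, a single ES cell line derived from A2lox cells in which doxycycline switches on miR-200c and miR-141 from an inserted copy of their genomic cluster. Cells were differentiated in suspension as embryoid bodies, in Petri dishes with 10% FCS, after 1 passage without feeder cells. The untreated cultures received no doxycycline, and the induced cultures received it at 500 ng/mL, first on day 2 and again on day 4. Cultures were sampled for RNA on day 3, day 4 and day 5, with 1 Affymetrix MOE430 2.0 array for each treatment and day. All 6 arrays therefore share the cell line, the inserted transgene and the serum, and no array holds doxycycline-treated cells that lack the inserted microRNAs, so an effect of the drug itself cannot be told apart from that of the microRNAs. The comparisons ask when each Hox gene appeared during differentiation and how that timing differed with the microRNAs induced. Median intensities over all probe sets ranged from 34.5 to 36.9 across the arrays. The number of arrays limits the precision.

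Hox genes encode homeodomain transcription factors that give cells their position along the head-to-tail axis. Within a cluster they lie in order of paralog number, and in embryos low numbers are switched on earlier and further forward than high numbers. Their first activation comes during gastrulation, when Wnt and FGF signals, Cdx factors and retinoic acid act on clusters held silent by Polycomb complexes in ES cells. Hox proteins bind DNA together with Pbx, Meis and Pknox cofactors.

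The 2 induced microRNAs act through their seeds, shown in capitals as bases 2 to 8, and belong to 2 seed groups. Mature sequences are from RefSeq, and both lie on the minus strand of chromosome 6 in GRCm38.p6, miR-200c-3p at chr6:124718324-124718346 and miR-141-3p at chr6:124717917-124717938.
mmu-miR-200c-3p: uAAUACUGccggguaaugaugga
mmu-miR-141-3p: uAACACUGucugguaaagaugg

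Hoxb1, Hoxd1, Hoxd8 and Hoxd9 exceeded the background level in the untreated culture alone and not before day 4, and their promoters are shown for this reason. Hoxb6 and Hoxc8 met the same rule, but no promoter window was available for them. Each window holds 300 bases around the transcription start in RefSeq (GRCm38.p6), and all 4 are on the plus strand. They lie at chr11:96365508-96365807 for Hoxb1, chr2:74762730-74763029 for Hoxd1, chr2:74704365-74704664 for Hoxd8 and chr2:74697513-74697812 for Hoxd9. Capitals mark matches, on either strand, to a joint Hox and Pbx motif (TGATNNAT), a Cdx motif (TTTATG), a nuclear receptor site of the kind bound by retinoic acid receptors (AGGTCA) and the Zeb and Snail E-box (CAGGTG).
Hoxb1: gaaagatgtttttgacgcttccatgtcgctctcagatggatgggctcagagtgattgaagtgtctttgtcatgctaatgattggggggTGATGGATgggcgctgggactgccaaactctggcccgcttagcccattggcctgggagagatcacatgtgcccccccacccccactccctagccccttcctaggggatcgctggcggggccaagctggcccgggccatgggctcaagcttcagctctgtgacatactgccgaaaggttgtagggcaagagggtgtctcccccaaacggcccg
Hoxd1: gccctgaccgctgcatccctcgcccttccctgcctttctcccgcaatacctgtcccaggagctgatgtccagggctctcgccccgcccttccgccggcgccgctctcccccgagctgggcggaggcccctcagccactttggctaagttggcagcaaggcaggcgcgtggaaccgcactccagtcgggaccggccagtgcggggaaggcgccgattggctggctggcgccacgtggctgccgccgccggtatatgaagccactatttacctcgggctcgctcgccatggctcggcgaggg
Hoxd8: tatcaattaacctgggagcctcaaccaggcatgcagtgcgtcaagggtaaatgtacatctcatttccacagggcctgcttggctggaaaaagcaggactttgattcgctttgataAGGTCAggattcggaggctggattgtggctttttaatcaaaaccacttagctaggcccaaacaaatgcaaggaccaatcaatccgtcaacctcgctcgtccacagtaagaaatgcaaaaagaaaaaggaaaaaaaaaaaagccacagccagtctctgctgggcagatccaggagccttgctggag
Hoxd9: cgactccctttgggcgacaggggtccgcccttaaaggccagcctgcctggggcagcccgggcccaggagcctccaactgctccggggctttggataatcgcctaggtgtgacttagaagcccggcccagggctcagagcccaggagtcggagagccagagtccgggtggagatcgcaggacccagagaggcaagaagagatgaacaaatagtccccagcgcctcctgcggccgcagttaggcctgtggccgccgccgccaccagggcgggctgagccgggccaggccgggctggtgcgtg
The Hoxb1 window held 1 joint Hox and Pbx match, beginning at -162 from the start site. In the Hoxd8 window there was 1 nuclear receptor match at -135, and the Hoxd1 and Hoxd9 windows held none of the 4 motifs. Among 32851 promoter windows of the same length, the joint motif occurred in 8.85%, the Cdx motif in 11.9%, the nuclear receptor site in 16.3% and the E-box in 20.2%. Of the 33 Hox genes, 19 had a window in the table, and 3 of these held the joint motif (Hoxa2, Hoxb1 and Hoxd11), 3 the Cdx motif (Hoxa7, Hoxd3 and Hoxd11), 6 the nuclear receptor site (Hoxa5, Hoxb4, Hoxc4, Hoxd3, Hoxd8 and Hoxd10) and 0 the E-box. A match is a run of letters and not a measured site.

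Most Hox genes gave no reading above background on any array. The deposited values are linear model-based intensities without detection calls, so a background level was set from 78 chemosensory receptor genes (for smell, pheromones, trace amines and taste), and the 95th percentile of their readings was 36.7. Onset was taken as the first day above that level. By this measure 18 of the 33 genes were never above background, 4 were above it on all 6 arrays and 11 on some arrays. The 18 were Hoxa2, Hoxa4, Hoxa7, Hoxa10, Hoxa13, Hoxb4, Hoxb5, Hoxb7, Hoxb9, Hoxb13, Hoxc4, Hoxc5, Hoxc9, Hoxc10, Hoxd3, Hoxd10, Hoxd11 and Hoxd12, and the highest reading among them was 33.8. The Hoxa7 probe set was listed at 1 on all 6 arrays. Of the genes above background somewhere, 4 lay in Hoxa, 4 in Hoxb, 3 in Hoxc and 4 in Hoxd.

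At the 95th percentile level, more Hox genes read above background on untreated day 5 than on any other array. Untreated cells had 6 Hox genes above background on day 3, 8 on day 4 and 12 on day 5. In induced cells the counts were 7, 7 and 6. The share of all 18193 genes above background was 60.9% on untreated day 3, 61.5% on day 4 and 60.2% on day 5, and 60.5%, 62% and 61.4% in the induced culture, so the array-wide share did not follow the Hox count. Onset in the untreated culture fell on day 3 for 6 genes, on day 4 for Hoxa9, Hoxb1 and Hoxb2, and on day 5 for Hoxb6, Hoxc8, Hoxd1, Hoxd8 and Hoxd9. Of these 8 later genes, Hoxb2 reached background in the induced culture on day 5 and Hoxa9 on day 3, and the other 6 stayed below it. With the level set at the 99th percentile of the receptor genes, 54.4, onset fell on days 3, 4 and 5 for 4, 3 and 3 untreated and 4, 0 and 1 induced genes. At 73.3, which is 2 times the 95th percentile, it fell on those days for 4, 1 and 1 untreated and 2, 1 and 1 induced genes, so that 2 genes in each culture had an onset after day 3. The number of Hox genes above 73.3 was then 4 on each untreated day and 2, 3 and 4 on induced days 3, 4 and 5, and untreated day 5 no longer stood above the others.

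**Figure D1:**
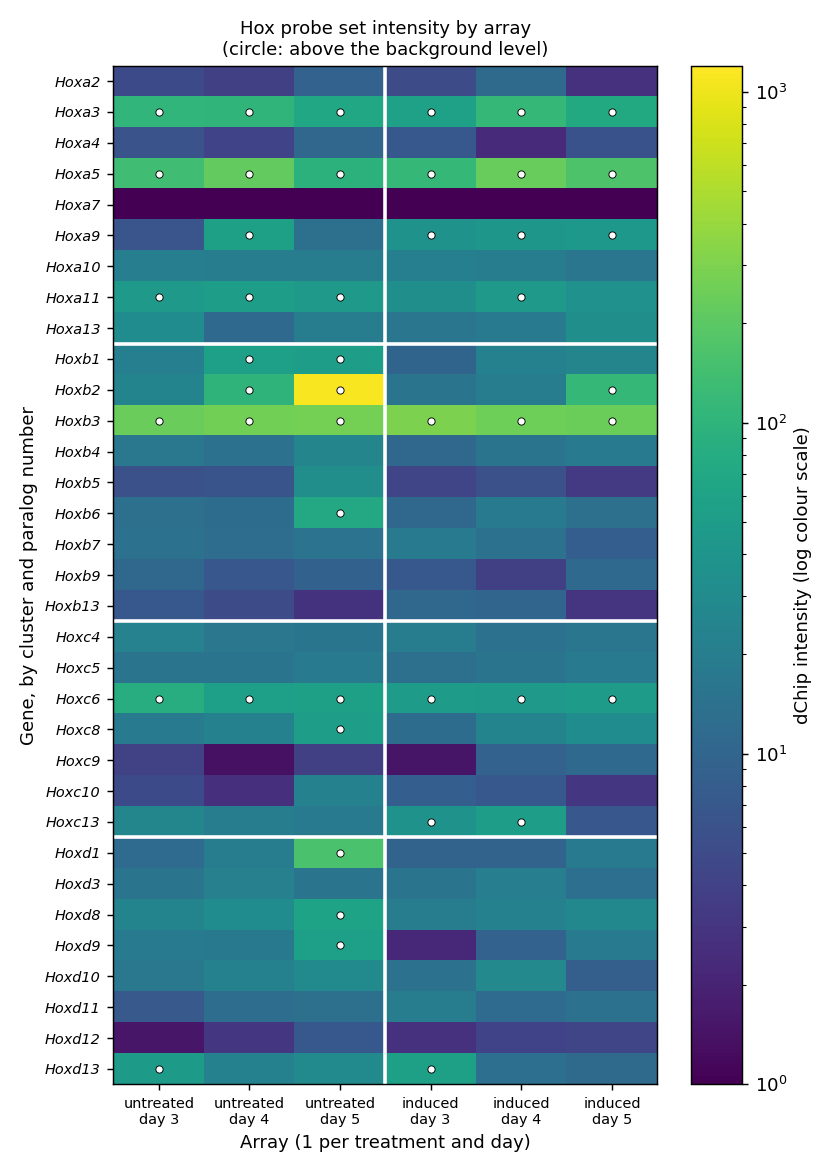
Intensity of the 33 Hox genes (rows, by cluster and paralog number) on the 6 arrays (columns, 1 array per treatment and day), with colour on a log scale and a circle where the reading exceeded the background level of 36.7. The untreated day 5 column has 12 circles and the induced day 5 column 6.

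By paralog number, the later untreated onsets fell among the lower and middle numbers. Of the 23 members with numbers 1 to 9, 11 were above background in untreated and 6 in induced cells on day 5. Of the 10 members with numbers 10 to 13, 1 (Hoxa11) was above it in untreated cells and 0 in induced cells, and all their readings lay between 1.55 and 55.5. Spearman's rho between paralog number and the log2 change from day 3 to day 5 was -0.30 in untreated and -0.32 in induced cells over the 33 genes, which share the same arrays and whose log2 values are damped at low intensity. The correlation is a description and was not tested.

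Hoxb2 had the largest change of the 33 genes. Hoxb2 patterns the hindbrain and its neural crest. It read 24.7, 101 and 1128 in untreated cells on days 3, 4 and 5, and 15.4, 19.8 and 111 in induced cells. The untreated reading was higher on days 4 and 5, and on day 3 both readings were below background. The untreated reading crossed background by day 4 and was highest on day 5. The induced reading crossed on day 5, at a value close to that of untreated day 4. On the log2(intensity + 50) scale, which damps changes of low readings, the change from day 3 to day 5 was 3.98 in untreated and 1.30 in induced cells. Induced minus untreated was -0.19 on day 3, -1.12 on day 4 and -2.87 on day 5, the last a 7.32-fold lower reading on that scale and a ratio of 10.2 on the intensities themselves. These daily differences rest on 1 array against 1 and have no replicate check.

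Hoxd1, a paralog 1 gene with a role in mouse sensory neurons, appeared a day later than Hoxb2 in untreated cells. Its readings were 12.1, 19.6 and 155 in untreated and 9.44, 9.51 and 19.3 in induced cells on days 3, 4 and 5. Untreated day 5 was the single array above background. The log2 change from day 3 to day 5 was 1.73 in untreated and 0.22 in induced cells, and the day 5 difference was -1.57. The induced reading was below background, so no exact fold is given.

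Hoxb1, an early gene of posterior epiblast that later marks a single hindbrain segment, appeared on day 4 in untreated cells. Its intensities were 21.4, 54.6 and 53.6 in untreated cells and 9.92, 22.3 and 25.2 in induced cells. Only untreated days 4 and 5 exceeded background, and of these day 4 lay just above and day 5 just below the 99th percentile of the receptor genes. The log2 difference between induced and untreated cells was -0.53 on day 4 and -0.46 on day 5. Hoxa2, the gene for the second branchial arch and anterior hindbrain, stayed below background throughout, at 4.89, 3.83 and 9.30 untreated and 5.17, 11.6 and 2.73 induced.

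**Figure D2:**
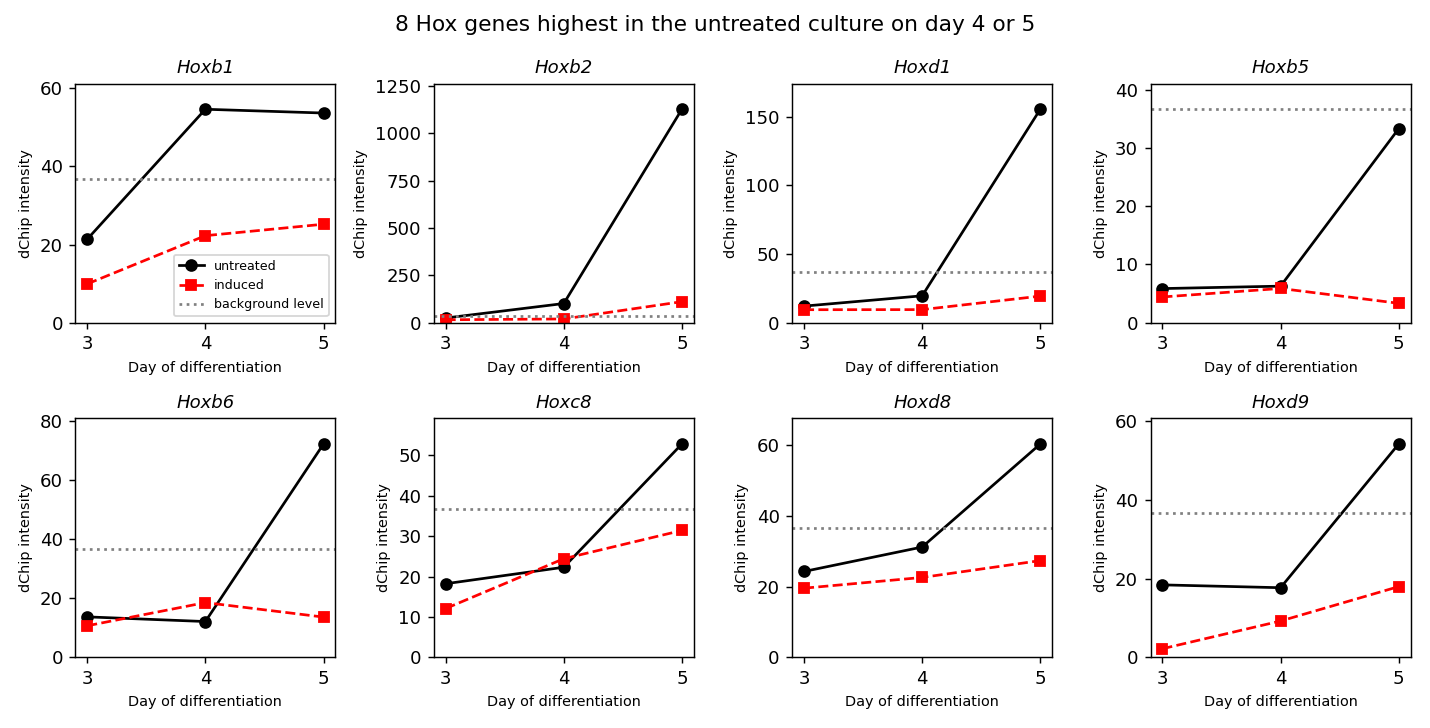
Intensity (vertical axes, linear, from 0, a separate scale in each panel) of 8 Hox genes, chosen for high untreated readings, on days 3, 4 and 5 in untreated (black circles) and induced (red squares) cultures, each point 1 array, with the background level of 36.7 dotted. On day 5 the untreated reading was above the induced reading in all 8 panels, from 1128 against 111 for Hoxb2 to 33.3 against 3.33 for Hoxb5, which stayed below background. The choice of genes favoured that direction.

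A set of middle paralogs was above background on untreated day 5 alone. These genes pattern trunk mesoderm and spinal cord, and Hoxb6 is also made in lateral mesoderm. Hoxb6 read 13.7, 12.1 and 72.2 in untreated and 10.7, 18.6 and 13.7 in induced cells. Hoxc8 read 18.2, 22.3 and 52.8 against 12.1, 24.4 and 31.4. The Hoxb6 induced readings had no upward course, while those of Hoxc8 were higher on each later day in both cultures and stayed below background with induction. Hoxd8 read 24.3, 31.3 and 60.4 in untreated and 19.6, 22.6 and 27.4 in induced cells. A second Hoxd8 probe set gave 10.9, 12.7 and 58.9 against 5.51, 12.4 and 21.4, so both placed the highest Hoxd8 reading on untreated day 5. Hoxd9, which neighbours Hoxd8, read 18.4, 17.7 and 54.1 against 2.21, 9.23 and 18.0. Hoxb6, Hoxc8, Hoxd8 and Hoxd9 all stayed below 73.3, and Hoxc8 and Hoxd9 also below 54.4, the 99th percentile of the receptor genes. The day 5 differences, induced minus untreated on the log2 scale, were -0.94 for Hoxb6, -0.34 for Hoxc8, -0.51 for Hoxd8 and -0.62 for Hoxd9. None reached 2-fold on that scale, which damps low readings. The induced readings were below background, so no exact fold is given.

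Hoxb5, Hoxb4 and Hoxc10 never left background. Hoxb5 gave 5.86, 6.28 and 33.3 in untreated and 4.42, 5.88 and 3.33 in induced cells, a day 5 difference of -0.64 between readings that were both below 36.7. Hoxb4 gave 17.1, 14.1 and 25.5 against 11, 15.5 and 19.2. For Hoxc10 the readings were 4.94, 2.66 and 22.6 against 8.25, 7.14 and 3.03. All readings of these genes were below background, so no course over the days is read from them.

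Hoxa9, Hoxa11, Hoxc13 and Hoxd13 were above background on other sets of arrays. Hoxa9, a gene of posterior trunk and of blood progenitors, read 6.56, 56.8 and 13.6 in untreated and 38.5, 42.6 and 44.2 in induced cells. Its second probe set gave 27.4, 12.9 and 47.7 against 22.9, 15.7 and 23.4, so the 2 probe sets disagreed on which array was highest and on the sign of the day 5 difference. Hoxa11, a limb and kidney gene, stayed near background at 44.5, 53.8 and 44.5 against 34.1, 45.1 and 36.5. The last paralogs, Hoxc13 and Hoxd13, had their highest readings on day 4 and day 3. Hoxc13 read 26.3, 19.7 and 19.2 in untreated and 37.9, 51.7 and 6.77 in induced cells, with a day 4 difference of 0.54. Hoxd13 read 48, 22.3 and 29.2 against 55.5, 13.4 and 11.7, and its second probe set ranged from 14.5 to 26.2 and was never above background.

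On all 6 arrays, day 3 included, 4 genes were above background, and each of them had other probe sets as well. Hoxa3, a gene of the posterior branchial arches, read 106, 105 and 68.6 in untreated and 58.2, 111 and 73.7 in induced cells, while its other 3 probe sets ranged from 1.66 to 17.6. Hoxa5, which acts in lung and axial skeleton, read 138, 220 and 95.6 against 112, 231 and 168, while its other probe set ranged from 1.56 to 15.3. Hoxb3, a hindbrain gene, ranged from 237 to 297, and its other probe set from 11.4 to 40.0 with 1 array above background. Hoxc6, a trunk gene, read 83.4, 54.6 and 56.0 in untreated and 49.7, 46.0 and 48.3 in induced cells. A second Hoxc6 probe set (37.7 to 69.5) was also above background on all 6 arrays and the remaining one (8.18 to 31.2) on none. The early readings of Hoxa3, Hoxa5 and Hoxb3 therefore rested on 1 probe set each, and 2 of the 4 chosen probe sets, those of Hoxa5 and Hoxc6, carry the identifier suffix for probes that can bind other transcripts.

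**Figure D3:**
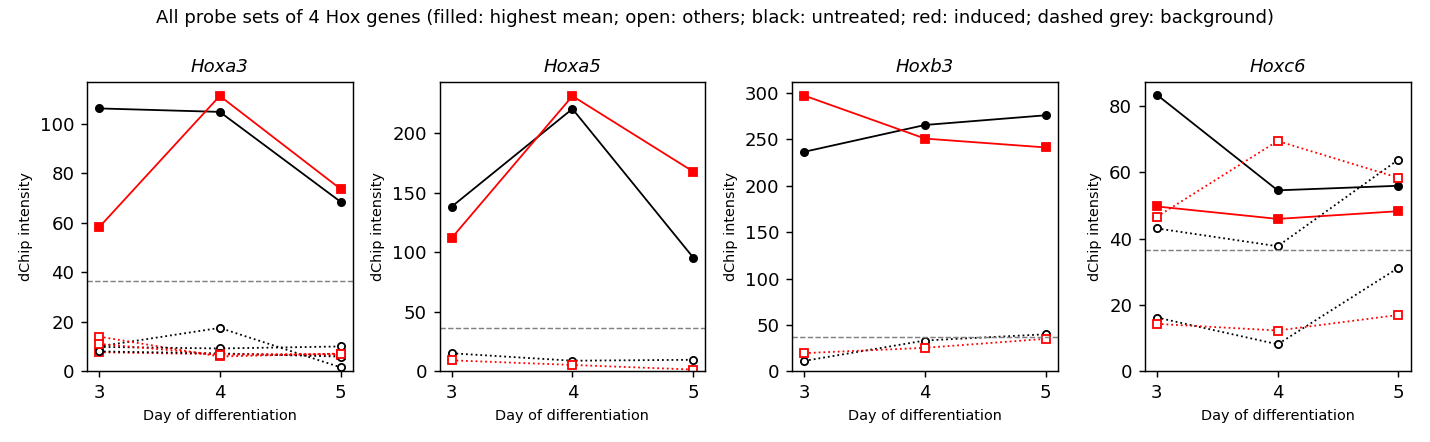
Intensity (vertical axes, linear, from 0) of every probe set of Hoxa3, Hoxa5, Hoxb3 and Hoxc6 by day, with filled symbols for the probe set with the highest mean, open symbols for the others, black for untreated, red for induced and a dashed line at the background level of 36.7. The chosen probe sets of Hoxa3, Hoxa5 and Hoxb3 stand apart from all others of the same gene, which stayed at or below 40.0.

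Across all 33 genes the shift with induction was small. Induced minus untreated was negative for 20 genes on day 3, 17 on day 4 and 23 on day 5. These counts take in the 18 genes never above background, whose signs carry no weight, and no matching share of all genes is given. The median difference was -0.05, -0.00 and -0.12 on the log2 scale, against 0.00, 0.02 and 0.02 over all genes tested. Over all 18193 genes, with no filter, it was -0.00, 0.01 and 0.01. Among the 15 genes above background on any array, 12 were lower in induced cells on day 5, and Hoxa3, Hoxa5 and Hoxa9 were higher. For Hoxb6, Hoxc8, Hoxd1, Hoxd8 and Hoxd9, which were among the 15 only through untreated day 5, that direction was fixed by the choice, and Hoxb1 entered only through untreated days 4 and 5. Hoxc13 (19.2 untreated, 6.77 induced) and Hoxd13 (29.2 and 11.7) read below background in both cultures on day 5, so their sign carries no weight. From day 3 to day 5 the median change was 0.10 in untreated and 0.04 in induced cells, against -0.02 and 0.02 over all genes tested. Hoxa5 and Hoxa9 differed on day 5 by 0.58 and 0.57, the opposite sign to Hoxb2. Their other probe sets gave -0.21 and -0.41, that of Hoxa5 from readings below background on every array.

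Differences of at least 2-fold were confined to Hoxb2 and Hoxd1 among the 33 genes. With induction, 0 Hox genes were 2-fold lower on day 3 (0.01% of all genes tested), 1 on day 4 (Hoxb2, 0.5%) and 2 on day 5 (Hoxb2 and Hoxd1, 1.52%), and 0 were 2-fold higher on any day. In untreated cells Hoxb2 was 2-fold higher on day 4 than on day 3 (1.91% of all genes tested), Hoxb2 and Hoxd1 on day 5 than on day 4 (2.94%), and the same 2 genes on day 5 than on day 3 (5.93%). In induced cells Hoxb2 alone was 2-fold higher on day 5 than on day 3 (4.67%). The Hox counts are out of all 33 genes, and the shares are of the 9997 genes tested. Of the 33, 6 passed the intensity filter for that set, Hoxb2 and Hoxd1 among them. The counts have no test, and at a pseudocount of 16 in place of 50 the day 5 count with induction was 6.

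**Figure D4:**
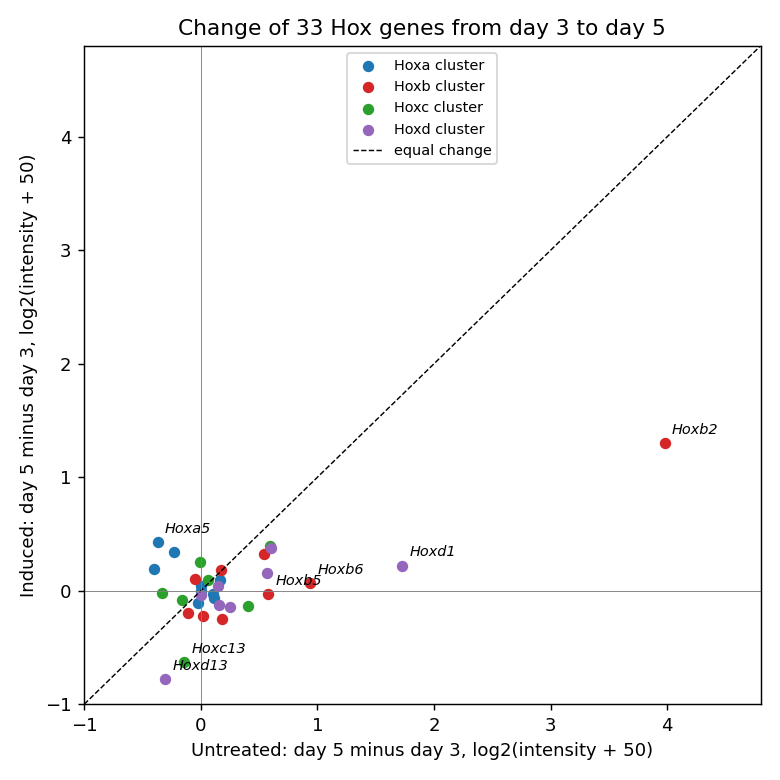
Change from day 3 to day 5 on the log2(intensity + 50) scale in untreated (horizontal) and induced (vertical) cultures for the 33 Hox genes, 1 point per gene coloured by cluster, with the dashed line marking equal change. Hoxb2 (3.98 and 1.30) and Hoxd1 (1.73 and 0.22) lie far to the right of the other genes and below the line.

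For a test, days and treatments were fitted together over all genes with limma, with Benjamini-Hochberg adjustment over 9997 genes whose highest reading reached the median of all gene values, 80.1. Of the 33 Hox genes 6 passed this filter (Hoxa3, Hoxa5, Hoxb2, Hoxb3, Hoxc6 and Hoxd1) and 27 did not, so the test says nothing of most members. Hoxd1 passed only through its untreated day 5 reading, and Hoxb2 through untreated days 4 and 5 and induced day 5. For both genes the filter therefore favoured a rise from day 3. Between day 3 and day 5, averaged over the treatments, Hoxb2 rose by 2.64 (SE 0.61, adjusted p = 0.0253 in limma) and was 1 of 6 called, where 20.6% of all genes tested were called higher and 19.2% lower. Without the 2 day 4 arrays the Hoxb2 change was the same and its adjusted p was 0.0547. Hoxd1 changed by 0.97 (SE 0.39, adjusted p = 0.104). Between days 3 and 4 the test called 0 of the 6 Hox genes (4.44% of genes higher, 4.54% lower), with 1 at an unadjusted p under 0.05 beside 3198 of 9997 genes. Between days 4 and 5 it called 0 (3.8% higher, 2.33% lower), with 2 at an unadjusted p under 0.05 beside 3136 of 9997 genes. The Hoxb2 difference between days 4 and 5 was 2.08 (SE 0.61, adjusted p = 0.0994). Hoxa5 differed by 0.66 between days 3 and 4 (SE 0.20, adjusted p = 0.102) and was called without the day 5 arrays (adjusted p = 0.00654), a fit that called 2958 of 9997 genes.

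Induction was not called for any gene. Over the 3 days limma called 0% of genes for induced minus untreated, with 842 at an unadjusted p under 0.05, 1 of them a Hox gene (Hoxb2). The mean Hoxb2 difference was -1.39 (SD 1.36 over the 3 days, SE 0.50, adjusted p = 0.573). It was negative on 3 of 3 days, but on day 3 both readings were below background, so the sign of that day carries no weight. The mean Hoxd1 difference was -0.62 (SD 0.83, SE 0.32, adjusted p = 0.601). Hoxd1 was below background in both cultures on days 3 and 4 and entered the test only through untreated day 5, so its sign carries no weight. The observed daily differences of both genes were unequal, and this fit counts such inequality as spread. A separate limma fit asked whether the effect of induction changed from day to day, and it also called 0% of genes, with 1322 at an unadjusted p under 0.05, 3 of them Hox genes. For Hoxb2 the change was -1.34 per day (SE 0.15, unadjusted p = 1.43e-04, adjusted p = 0.109). For Hoxd1 it was -0.75 (SE 0.21, adjusted p = 0.242) and for Hoxa5 0.40 (SE 0.11, adjusted p = 0.234). With probe sets of the kinds that can bind several transcripts left out, fewer genes were tested and the Hoxb2 change per day had an adjusted p of 0.0345.

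With no filter on low values, limma called 5 of the 33 Hox genes between days 3 and 5, where 10.8% of 18193 genes were called higher and 10.3% lower. The 4 higher were Hoxb2 (2.64, adjusted p = 0.0294), Hoxb1 (0.43, adjusted p = 0.0322), Hoxc8 (0.49, adjusted p = 0.0293) and Hoxd9 (0.49, adjusted p = 0.0305). Hoxd13 fell by 0.54 (adjusted p = 0.0338). Apart from Hoxb2, these genes read below background in at least 1 culture on day 5, so the log2 sizes are damped.

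Noncoding transcripts of the clusters were read from their own probe sets. Hoxd3os1, from the Hoxd cluster, gave 9.09, 5.76 and 47.7 in untreated and 7.25, 5.97 and 8.80 in induced cells, above background on untreated day 5 alone. The Hoxb5os probe set ranged from 34.2 to 55.7 over the arrays, and Hoxa11os reached at most 8.43. The labels do not state whether the probes separate these transcripts from an overlapping partner.

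Most cofactor genes were above background on every array, 5 or 6 of 8. Of 9 Pbx, Meis and Pknox genes listed, 8 were on the array and 6 were tested. Between days 3 and 5, 5 rose and 1 fell in limma, against 20.6% and 19.2% of all genes tested. Meis2, a partner of Hox proteins in mesoderm and hindbrain, rose (1.10, adjusted p = 0.0215), reading 108, 341 and 375 in untreated and 94.0, 132 and 194 in induced cells. Pknox2 rose from below background in both cultures (1.27, adjusted p = 0.00895), reading 7.74, 33.3 and 127 against 12.6, 14.7 and 69.2. It passed the filter only through untreated day 5, which favoured its rise and fixed the sign of its day 5 difference. Meis3, also among the 5 that rose, passed only through days 4 and 5, which favoured its rise. Pknox1 fell (-0.61, adjusted p = 0.033). On day 5 the induced reading differed from the untreated one by -0.80 for Meis2, -0.57 for Pknox2, -0.29 for Pknox1 and 0.21 for Pbx3, and the median over the 6 was -0.23, against 0.02 for all genes tested.

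Of 16 posterior regulators listed, 15 were on the array and 10 were tested, and 3 rose and 1 fell between days 3 and 5, beside 20.6% and 19.2% of all genes tested. Cdx2, a direct activator of Hox genes, read 23.3, 98.6 and 485 in untreated and 15.9, 41.8 and 66.4 in induced cells. It rose between days 3 and 5 (1.85, adjusted p = 0.0350), crossed background on day 4 in both cultures and differed by -2.20 on day 5. Cdx1 (15.1 to 26.5) and Cdx4 (5.54 to 9.54) were below background on all arrays and were not tested. Evx1, next to the Hoxa cluster, and Wnt5a, a ligand of posterior tissues, rose, and Fgf4 fell. The day 5 difference was 1.95 for Fgf8, a ligand of the primitive streak, -1.40 for Nkx1-2, a caudal epiblast gene, and -0.94 for Wnt5a. Posterior regulators were thus split on day 5, with 5 higher and 5 lower in induced cells and a median of 0.14. Among the lower, Cdx2 and Nkx1-2 passed the filter only through untreated days 4 and 5, which favoured that direction. For Cdx2 it also favoured a rise from day 3. Wnt5a passed the filter only through untreated day 4 and day 5 in both cultures, which favoured its rise. Fgf4 passed it only through day 3, which favoured its fall.

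Retinoic acid genes gave 7 tested of 16 on the array and 18 listed, with 1 rise (Cyp26a1, which degrades retinoic acid) and 1 fall (Rarg, a receptor) between days 3 and 5, against 20.6% and 19.2% of all genes tested. The enzymes that make retinoic acid from retinal, Aldh1a1, Aldh1a2 and Aldh1a3, were at 23.4 or lower on every array. The day 5 differences were -1.22 for Crabp1 and 0.92 for Crabp2, which carry retinoic acid in the cell, 0.69 for Cyp26a1 and 0.36 for Rdh10, and the median over the 7 was 0.26. Crabp1 passed the filter only through untreated day 5, which fixed its direction. Cyp26a1 passed it only through days 4 and 5, which favoured its rise from day 3.

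Chromatin regulators include the complexes that hold Hox clusters silent or active. Of 23 Polycomb and trithorax genes listed, 21 were on the array and 19 tested, with 4 rises and 8 falls between days 3 and 5, against 20.6% and 19.2% of all genes tested, and a median day 5 difference of -0.00. The members with the largest day 5 differences were Phc1 (0.90), Kdm6b, an H3K27 demethylase (-0.59), Cbx7 (0.48) and Bmi1 (-0.41). Genes flanking the clusters, 13 tested of 15 listed, gave 3 rises and 2 falls, beside the same 20.6% and 19.2% of all genes tested, and a median of 0.07, and their largest day 5 differences were those of Skap2 (0.71) and Snx10 (0.69) beside Hoxa, Calcoco1 (0.57) beside Hoxc and Mtx2 (-0.48) beside Hoxd. Evx1 and Evx2 belong to both the flanking and the posterior list. None of the tested genes of these 5 lists was called for induction or for its change per day, as was true of all genes.

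Genes of hindbrain and anterior neural tissue were read beside the Hox genes known from the hindbrain. Of 15 listed, 13 were on the array and 5 tested, with 1 rise (Irx3) and 1 fall (Sox1) between days 3 and 5, where 20.6% of all genes tested rose and 19.2% fell. Sox1 passed the filter only through untreated day 3, which favoured a fall. Irx3 passed it only through day 5, in both cultures, which favoured a rise. Egr2, which marks hindbrain segments and activates Hoxb2 there, read 46.5, 62.0 and 32.6 in untreated and 50.9, 41.3 and 35.0 in induced cells, with its highest reading on untreated day 4. The day 5 differences were -2.52 for Fgf15, 2.14 for Otx2, -0.36 for En2 and -0.26 for Irx3. The summed intensity of neural markers (Sox1, Pax6 and Neurog1) was 135, 21.6 and 23.3 in untreated and 101, 25.6 and 22.5 in induced cells, and on day 5 0 of the 3 were above background in either culture.

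Markers of later mesoderm differed between the cultures on day 5. All 6 markers of lateral and extraembryonic mesoderm (Hand1, Hand2, Foxf1, Bmp4, Tbx20 and Isl1) were lower in induced cells on day 5, and their summed intensity was 328, 1338 and 6322 in untreated and 345, 652 and 2274 in induced cells. The 7 markers of blood and endothelium summed to 324, 694 and 3492 against 309, 311 and 493. Of these 5 were tested, and Tal1, Cdh5 and Hbb-bh1 passed the filter only through untreated day 5, which fixed their direction. The other two tested, Lmo2 and Etv2, differed by -1.87 and -1.15 on day 5, and Gata1 and Pecam1, not tested, by -0.21 and -0.37. Embryonic globin Hbb-bh1 read 1600 on untreated day 5 and 40.0 on induced day 5. Fibroblast markers, which feeder cells would carry, summed to 240, 239 and 1059 against 241, 276 and 363, and on day 5 the 4 tested (Col1a1, Col1a2, Postn and Twist2) were lower with induction. Postn and Twist2 passed the filter only through untreated day 5, which fixed their direction. Of the 4 not tested, all below background on untreated day 5, Thy1 differed by -0.11, Dcn by 0.45, Lum by 0.09 and Prrx1 by 0.15, and Prrx1 was above background on induced day 5. The part of these cell types in the Hox differences was not tested, and in RNA from whole cultures fewer cells of a type and less RNA per cell cannot be told apart.

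Other marker groups had another course. Epiblast markers (Fgf5, Otx2 and Pou3f1) summed to 6812, 5518 and 942 in untreated and 6623, 6558 and 4806 in induced cells, all 3 higher with induction on day 5. Primitive streak and early mesoderm markers, 5 of 6 listed, summed to 1015, 9770 and 9051 against 704, 5320 and 9858. These were split on day 5, with 3 lower in induced cells (Kdr -0.82, Pdgfra -0.88 and Mesp1 -0.10) and 2 higher (Mixl1 0.96 and Eomes 0.64). Naive ES cell markers summed to 6139 on day 3 and 2187 on day 5 in untreated cells, and to 6484 and 1682 in induced cells. Tbx3 and Klf4 went against the other 3 naive markers from day 3 to day 5, and Tbx3 gave 1240 of the untreated and 609 of the induced day 5 sum. Definitive endoderm markers summed to 3928 on untreated and 7267 on induced day 5. Extraembryonic endoderm markers summed to 807 and 229 on day 5, and Afp, Ttr and Apoa1 among them were below background on untreated day 5, the sum resting on Sox7. Paraxial mesoderm markers summed to 161 and 179 on day 5, with Msgn1 and Meox1 below background on all arrays. The part of these groups in the Hox readings was not tested either.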

How the data were processed

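Total RNA of 6 A2.miR200c cultures was hybridised to Affymetrix MOE430 2.0 arrays, 1 per treatment and day. The authors normalized and modelled the arrays in DNA-Chip Analyzer (dChip, version not given in the sources used here), and the deposited value of each of 45037 probe sets is a linear model-based intensity, with no replicate pooling and no detection calls. Platform annotation gave 34945 probe sets a single symbol, 932 several and 9160 none, and the latter 2 kinds were not used.

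Intensities were analysed as log2(intensity + 50) in R 4.3.3 with limma 3.58.1 (lmFit, then eBayes with its trend option; two-sided, Benjamini-Hochberg at 0.05). The median of all gene values was 80.1, and the 9997 genes with a reading at or above it entered the fits. Day as a factor and treatment gave the contrasts between days and the mean effect of induction, with 2 residual and 3.05 prior degrees of freedom. Treatment by linear day gave the change of effect per day, with 1 residual degree of freedom. With 1 culture per treatment and day, the p-values measure departures from these models, not a spread between replicate cultures, and the number of arrays limits precision. The methods name no test.

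The fits were tested on simulated data with 200 of 9997 genes changed 2-fold. Noise was independent, with variances drawn from the fitted prior, and the filter was not reapplied. The simulated effect of induction was the same on all 3 days, so its recovery does not apply to effects that differ between days. Recovery was 81.5% for days 3 to 4 (10 false calls), 77% for days 4 to 5 (6), 76.5% for days 3 to 5 (7), 87.5% for induction (7) and 69% for a 2-fold change of effect per day (12).

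Members and lists were chosen with earlier results of these data known. All 6 readings were printed for the genes of paralog numbers 1 and 2, the 12 members with the largest mean change from day 3 to day 5, the 10 with the largest induction difference on day 5 and the 3 on day 4. Hoxa11 and Hoxa3 were added after their values were seen. Of each other list, up to 4 tested genes with the largest day 5 difference were named, with Cdx1, Cdx2 and Cdx4. Further genes of those lists were named after their values were seen. All 33 members matched RefSeq by Entrez identifier. No genome sequence was used. Alternatives were other pseudocounts, filters, probe set choices, background levels, fold limits and normalization, no trend, no day term and each day left out.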

Additional observations from a re-analysis of the deposited data

How the results depend on the processing

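With 1 array per treatment and day, leaving out a day was the closest check on single arrays. Between days 3 and 4 the count of Hox genes called went from 0 to 1 without day 5 (Hoxa5), while all genes called went from 898 to 2958 of 9997. Between days 3 and 5 it went from 1 to 5 with no filter on low values and to 0 without day 4. For the day-to-day change of the effect of induction it went from 0 to 1 without probe sets ending in _x_at or _s_at (Hoxb2), whose adjusted p ranged from 0.0345 to 0.370 over the alternatives. The adjusted p of Hoxb2 between days 3 and 5 ranged from 0.0132 to 0.0547, and that of its mean induction effect from 0.372 to 1. The cause of these moves was not tested, except that fewer or more genes were tested under the filters.

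Counts above background also moved. On induced day 3 the 7 genes became 4 at the 99th percentile, 2 at 2 times the 95th percentile and 4 with the mean of all probe sets. On untreated day 4 the 8 became 4 at 2 times the 95th percentile and 5 with the mean of all probe sets. On induced day 4 the 7 became 3 at the 99th percentile and 3 at 2 times the 95th. On untreated day 5 the 12 became 4 at 2 times the 95th percentile.

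Counts at 2-fold depended on the pseudocount. The 1 gene lower with induction on day 4 became 0 at a pseudocount of 100, and the 2 lower on day 5 became 6 at 16 and 5 at a 1.5-fold limit. In untreated cells, the 1 gene higher on day 4 than on day 3 became 2 at 16, 0 at 100 and 2 at 1.5-fold. The 2 higher on day 5 than on day 4 became 6 at 16 and 4 at 1.5-fold, and the 2 higher on day 5 than on day 3 became 6 at 16 and 5 at 1.5-fold. In induced cells the 1 gene higher on day 5 than on day 3 became 0 at 100.

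The direction turned in 5 values, none of them called. With the mean of all probe sets, Hoxb3 changed by 0.12 between days 3 and 4 and by 0.19 between days 3 and 5. Mean induction effects turned to 0.060 for Hoxa3 and -0.12 for Hoxb3 without day 3 and to -0.080 for Hoxa5 without day 5. Under the alternatives, 239 other values kept their direction and side of the threshold, and 96 counts stayed within 1.5 times. The change per day without a day had no residual degrees of freedom and was not run, nor were contrasts lacking their own day. Day pairs the arrays of both treatments and was a term in the fit of induction. Without it 0 Hox genes were called for induction, as with it.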
